A study of Homo sapiens with 3 samples.

Results

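The EGFR family and MET are receptor tyrosine kinases of the epithelial cell surface, and the 5 genes that encode them, EGFR, ERBB2, ERBB3, ERBB4 and MET, were followed here in 3 MCF10A libraries. They were taken by gene name from a panel of 110 endogenous genes, of which 5 are housekeeping genes, so the receptors are 5 of 105 genes other than housekeeping genes. The rule that picks them uses names and no measured value, but it was set with earlier results of these data known. MCF10A is a human breast epithelial line that grows without limit but is not tumorigenic. The study sits in work on changes of cell state under the transcription factor Slug, and its groups were the cell subpopulations labelled stem, basal and luminal, with 1 library of total RNA each. The labels give no treatment, no growth medium and no way of separation, and the RNA kit they name is one made for fixed tissue, not for cultured cells. RNA was counted on a NanoString nCounter instrument, where each target RNA is bound by a probe that carries a coloured barcode and single barcodes are counted with no amplification step.

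EGFR is the receptor for EGF and related ligands, and MET is the receptor for hepatocyte growth factor, HGF. ERBB2 has no known ligand of its own and acts in pairs with the other family members. ERBB3 binds neuregulins but has a weak kinase, and ERBB4 binds neuregulins with an active kinase. In mammary epithelium EGFR is known chiefly from basal cells, whereas ERBB3 and ERBB4 are known from luminal differentiation and lactation. MCF10A is usually grown with added EGF, which binds EGFR.

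The libraries differed widely in depth. Endogenous counts summed to 792367 in the stem, 8891 in the basal and 9136 in the luminal library. The 6 spiked positive control RNAs summed to 69670, 776 and 2795 counts in the same order. Counts of the spiked controls thus differed widely as well, and by other proportions than the endogenous counts. What set these differences was not tested. Background, set at the mean plus 2 SD of the 8 negative control probes, was 18.9 counts in stem, 1 in basal and 1.83 in luminal. The lowest value listed in the table is 1, so a gene listed at 1 may have had a count of 0 or 1. The negative control probes averaged 1 in basal and 1.125 in luminal, with highest values of 1 and 2. Background in these libraries thus lies at or near the lowest listed value, and a gene with 2 counts passes it. Of the epithelial markers, KRT8 had 83241, 1076 and 1239 counts and KRT5 had 61068, 917 and 972 counts in stem, basal and luminal, so a keratin usual in luminal and one usual in basal cells were both abundant in every library. Among luminal markers, CD24 had 738 counts in stem, 4 in basal and 21 in luminal. Its log2 ratio for basal over luminal was -2.17 (-4.17 to -0.60). EPCAM had 449 in stem, a listed 1 in basal and 6 in luminal. Its ratio was -2.36 (-7.89 to 0.68), with no change inside the interval, and that of KRT8 was 0.02 (-0.10 to 0.14). In stem ESR1 had 24, KRT19 32 and GATA3 39 counts, and all 3 were listed at 1 in both basal and luminal, where levels as low as in stem could not be seen. The basal markers were split, with log2 ratios of basal over luminal of 0.14 (0.005 to 0.27) for KRT5 and 0.48 (0.30 to 0.66) for KRT14. KRT17 went the other way at -0.42 (-0.62 to -0.22), and CDH3 stood at -0.18 (-0.84 to 0.46). The panel held none of the markers chosen for cells that are not epithelial. Levels below are counts per 100 of the geometric mean of the 5 housekeeping genes, called normalised counts, and every interval is a 95% interval for counting error only. Since each subpopulation has 1 library, the spread between replicates is unknown, the subpopulations could not be tested against each other and no p-value is given.

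MET and EGFR were the abundant receptors in all 3 libraries, ERBB2 had far lower counts than EGFR, ERBB3 was above background in stem, and ERBB4 was not above background in any library. MET had 5840 counts in stem, 54 in basal and 50 in luminal. Its normalised count was 45.5 (44.3 to 46.6) in stem, 45.6 (34.3 to 59.5) in basal and 36.2 (26.9 to 47.8) in luminal. The 3 intervals overlapped, with luminal the lowest value. EGFR had 4452, 40 and 36 counts in stem, basal and luminal. Its normalised count was 34.7 (33.6 to 35.7) in stem, 33.8 (24.1 to 46.0) in basal and 26.1 (18.3 to 36.1) in luminal. Again luminal was lowest and the intervals overlapped. MET ranked 24th of 105 genes in stem, 19th in basal and 21st in luminal, and EGFR 28th, 24th and 28th.

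ERBB2 had 424 counts in stem, was listed at 1 in basal and had 4 counts in luminal. The normalised count was 3.30 (2.99 to 3.63) in stem and 2.90 (0.79 to 7.42) in luminal, and in basal it was not above background. At the stem level, the depth of the basal library would give 3.91 counts of ERBB2 and that of the luminal library 4.55. ERBB3 had 57 counts in stem, a normalised count of 0.44 (0.34 to 0.57), and was listed at 1 in basal and luminal. At the stem level only 0.53 counts of ERBB3 would be found at the basal depth and 0.61 at the luminal depth, so a level as low as that in stem was not detectable there. A count of 0 allows up to 3 counts, or a normalised count of 2.53 in basal and 2.17 in luminal. ERBB4 had 16 counts in stem, under the background of 18.9 although above the highest negative control probe, at 14, and was listed at 1 in the other libraries.

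**Figure D1:**
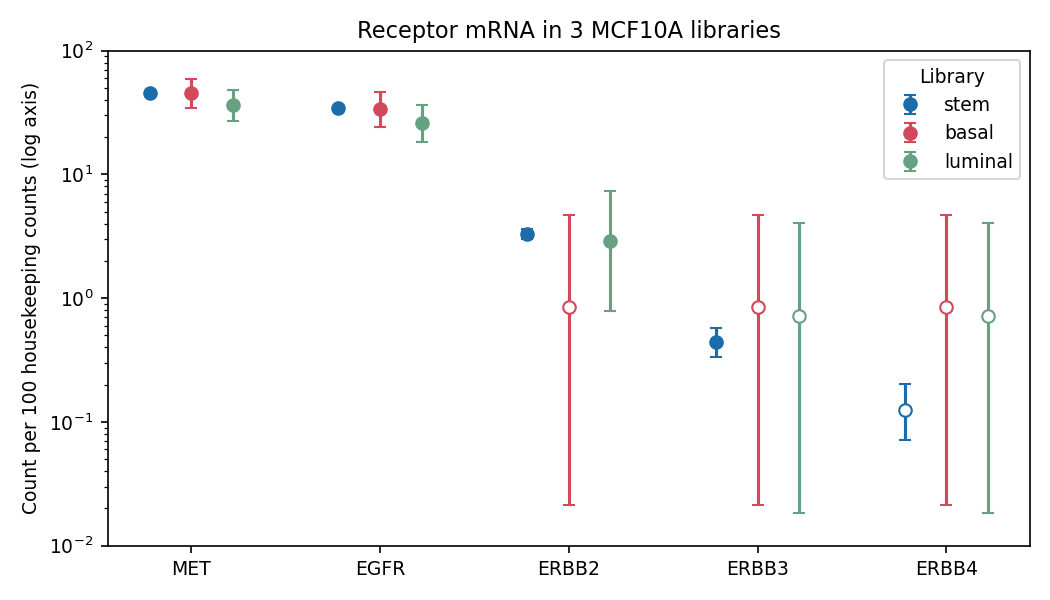
Normalised counts (per 100 housekeeping counts, log axis) of the 5 receptors in the stem, basal and luminal libraries, with 95% counting intervals and open circles for counts not above background. MET and EGFR lie between 26.1 and 45.6 in every library, while ERBB2 has a normalised count of 3.30 in stem and ERBB3 one of 0.44.

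Each receptor is counted by 1 probe, so counts do not grow with the length of the transcript, but probes may bind with unequal efficiency and the order of counts is an order of probe counts. The accessions given for the probes name 1 transcript each (for example NM_001005915.1 for ERBB3) and do not say where in it the probe binds, so the isoforms counted are not known. All 5 accessions matched the expected symbol in RefSeq. In the stem library the order was MET, EGFR, ERBB2, ERBB3 and ERBB4, and each neighbour in it was separated by an interval that excluded 1. There MET had 1.31 times the count of EGFR (1.26 to 1.36), EGFR 10.5 times that of ERBB2 (9.50 to 11.6), ERBB2 7.44 times that of ERBB3 (5.63 to 9.99) and ERBB3 3.56 times that of ERBB4 (2.02 to 6.65), the last against a count within background. In basal, MET over EGFR was 1.35 (0.88 to 2.09), and in luminal it was 1.39 (0.89 to 2.19), so these neighbours were not separated at the lower depth. EGFR over ERBB2 was 9 (3.23 to 34.8) in luminal, and in basal it was 40 with a lower limit of 6.78 when ERBB2 is taken as 1 count. The order of ERBB2, ERBB3 and ERBB4 was not resolved in basal, where all 3 were listed at 1. In luminal, ERBB2 over ERBB3 had an interval from 0.40 to 197.0.

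**Figure D2:**
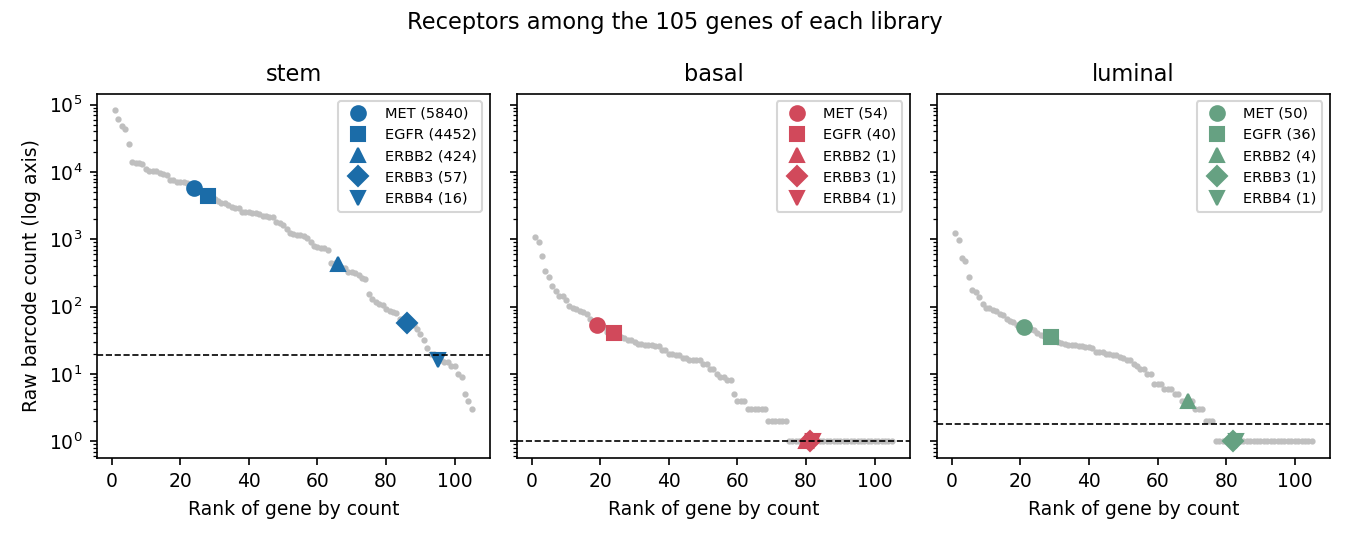
Raw barcode counts (log axis) of the 105 genes other than housekeeping genes against their rank in each library, with receptors as coloured symbols, background as a dashed line and tied genes in alphabetical order. MET and EGFR sit between rank 19 and rank 28 or its tie in each library, while ERBB3 and ERBB4 lie on the lowest listed value of 1 in basal and luminal.

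Shares within the sum of the 5 receptors do not depend on how libraries are scaled to each other. MET made up 54.1% (53.2 to 55.1) of the 10789 receptor counts in stem, 55.7% (45.2 to 65.8) of 97 in basal and 54.3% (43.6 to 64.8) of 92 in luminal. EGFR made up 41.3% (40.3 to 42.2) in stem, 41.2% (31.3 to 51.7) in basal and 39.1% (29.1 to 49.9) in luminal. Together they held 95.4%, 96.9% and 93.5% of receptor counts in stem, basal and luminal. ERBB2 held 3.93% (3.57 to 4.31) in stem and 4.35% (1.20 to 10.8) in luminal. In basal the single listed ERBB2 count gives 1.03% with an interval of 0.026 to 5.61, which contains the stem share. The exact intervals of these shares (Clopper-Pearson) are wide in basal and luminal because fewer than 100 receptor counts were made in each. All 5 receptors came to 1.36% (1.34 to 1.39) of endogenous counts in stem, 1.09% (0.89 to 1.33) in basal and 1.01% (0.81 to 1.23) in luminal. That share moves with a few abundant genes as well as with the receptors.

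MET and EGFR kept nearly the same proportion to each other in the 3 libraries. The ratio of MET to EGFR changed by a log2 value of -0.08 (-0.75 to 0.57) for stem over luminal, -0.04 (-0.67 to 0.58) for stem over basal and -0.04 (-0.96 to 0.87) for basal over luminal. These values need no scale and no equal probe efficiency, and each interval includes no change as well as shifts up to its limits. Among the 71 genes above background in all 3 libraries, likeness was measured as the Euclidean distance of log2 normalised counts centred over the 3 libraries. EGFR was the nearest of 70 genes to MET, at a distance of 0.06, followed by MYC, a transcription factor, at 0.08 and SPINT2 at 0.12. MET was likewise nearest to EGFR, followed by SPINT2 at 0.07 and PNP, an enzyme of purine salvage, at 0.13. The median distance over the 70 genes was 0.46 for MET and 0.47 for EGFR. A distance over 3 libraries, 2 of them with few counts, is a description only.

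Promoter stretches of MET and EGFR, each the nearest gene to the other by this measure, are shown at 1 RefSeq start each. Each line is the 250 bases before a RefSeq start (GRCh38.p14, plus strand), at chr7:116671946-116672195 for MET and chr7:55018767-55019016 for EGFR, with capitals for the GC box GGGCGG or its reverse complement.
MET: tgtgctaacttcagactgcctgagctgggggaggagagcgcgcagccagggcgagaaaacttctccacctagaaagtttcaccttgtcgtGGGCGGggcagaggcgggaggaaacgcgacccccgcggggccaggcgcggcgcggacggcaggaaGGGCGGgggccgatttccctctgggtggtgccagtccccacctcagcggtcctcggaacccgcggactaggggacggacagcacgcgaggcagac
EGFR: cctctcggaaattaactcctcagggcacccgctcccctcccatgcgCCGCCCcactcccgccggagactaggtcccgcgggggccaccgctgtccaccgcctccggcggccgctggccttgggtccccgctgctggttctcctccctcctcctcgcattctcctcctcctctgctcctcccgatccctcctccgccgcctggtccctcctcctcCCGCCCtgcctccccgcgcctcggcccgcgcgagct
Both stretches held 2 GC boxes and 0 copies of TATAAA on either strand, and 68.4% of the bases for MET and 73.6% for EGFR were G or C. Of 35114 such stretches in the RefSeq table, 42.6% held at least 1 GC box and 10.7% held TATAAA on either strand. A GC box and a lack of TATAAA are thus common, but the share with 2 GC boxes was not computed. The median GC content was 58.0%, and 75.6% of stretches had a lower content than MET and 86.9% a lower one than EGFR. RefSeq lists a further EGFR start, whose stretch at chr7:55109589-55109838 had 0 GC boxes, 2 TATAAA matches and 38.8% G or C. ERBB2 (chr17:39687844-39688093) had 0 GC boxes and 65.6% G or C, and ERBB4 (chr2:212538803-212539052, minus strand) had 1 GC box and 57.2%. ERBB3 is named only. The counts do not say which start was used, and these matches are a description of the sequence.

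Between libraries, receptor ratios stayed within counting error of 1 on the housekeeping scale. For stem over luminal, MET had a log2 ratio of 0.33 (-0.07 to 0.76) and ERBB2 one of 0.19 (-1.18 to 2.07), while the value of EGFR was 0.41 with an upper limit of 0.93. Of the 4 receptors above background in either library, 3 had ratios above 1, 0 had an interval that excluded 1 and 0 reached the rule of size, which asks for at least 2-fold and an interval that excludes 1. Over all 94 genes above background, 24.5% had an interval that excluded 1 and 4.26% passed the rule. The median log2 ratio was 0.26 over these 4 receptors and 0.16 over the 94 genes. ERBB3, at 57 counts in stem against a listed 1 in luminal, had an interval from -3.24 to 4.62, and ERBB4 was not above background in either.

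For stem over basal, MET stood at a log2 ratio of -0.005 (-0.39 to 0.41), and EGFR differed by 0.04 only, with 4452 counts in stem against 40 in basal. Of the receptors above background in either library, ERBB2 had the widest gap, with 424 counts in stem against a listed 1 in basal, a log2 ratio of 1.97 (-0.52 to 7.27). If the basal count was 0, the interval starts at 0.08 and has no upper limit, so the call on ERBB2 rests on whether the listed 1 was 1 count or none. Of the 4 receptors above background, 0 had an interval that excluded 1 and 0 passed the rule of size, against 24.5% and 3.19% of 94 genes. Their median log2 ratio was 0.02, and that of all 94 genes 0.03.

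For basal over luminal, MET had a log2 ratio of 0.33 (-0.25 to 0.92) and EGFR 0.37 with limits of -0.31 and 1.06. ERBB2 was listed at 1 in basal against 4 counts in luminal, a log2 ratio of -1.78 (-7.40 to 1.56). Of these 3 receptors 0 had an interval that excluded 1 and 0 passed the rule, against 16.5% and 2.53% of 79 genes. ERBB3 and ERBB4 were listed at 1 in both libraries and have no ratio. The 3 comparisons share libraries, so their values are not independent of each other.

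**Figure D3:**
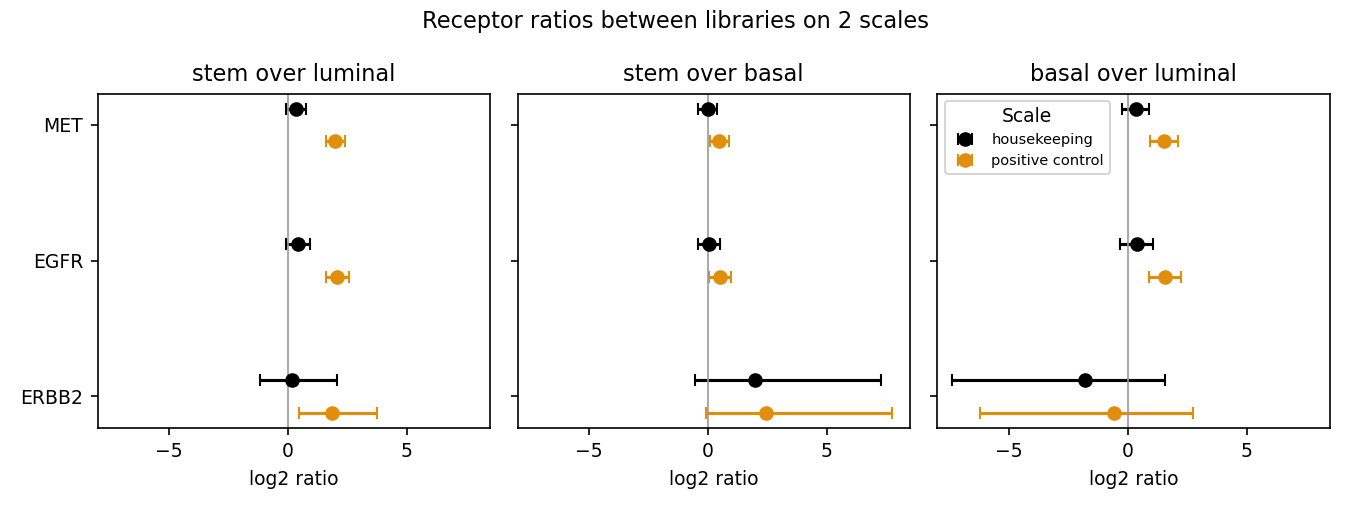
Log2 ratios of MET, EGFR and ERBB2 with 95% counting intervals for stem over luminal, stem over basal and basal over luminal, on the housekeeping scale (black) and the positive control scale (orange), with ERBB2 in basal taken as 1 count. On the housekeeping scale all 9 intervals include 0, and on the positive control scale those of MET and EGFR lie above 0 in every comparison.

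The scale between libraries matters for these ratios. Scaling by the 6 spiked positive control RNAs adds 1.66 to each log2 ratio of stem over luminal, 0.47 to stem over basal and 1.19 to basal over luminal. MET then came to 1.99, 0.46 and 1.53 and EGFR to 2.07, 0.50 and 1.57 in the same order, each with an interval above 0. Positive controls A to D alone were added as a scale once the data had been seen. With them EGFR came to 0.16 and MET to 0.12 for stem over basal, and neither interval excluded 0. For stem over luminal EGFR then came to 2.18 and MET to 2.10, and for basal over luminal to 2.02 and 1.98. Each of these had an interval above 0. The housekeeping genes did not keep fixed proportions either, with an SD of their log2 ratios of 0.37, 0.60 and 0.55 (n = 5 genes). Leaving out each housekeeping gene in turn gave EGFR values between 0.30 and 0.53 for stem over luminal, between -0.17 and 0.20 for stem over basal and between 0.14 and 0.48 for basal over luminal. The sign for stem over basal thus depends on the scale for EGFR, and for MET it ran from -0.22 to 0.16. The amount of RNA put into each lane is not known here, and its part in these shifts was not tested.

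Setting a receptor against each other gene within the same libraries removes the scale. A gain or loss of the receptor can then come from a change of the other gene. EGFR was compared in this way with 70 genes above background in all libraries. For stem over luminal, EGFR gained on 8 genes with intervals that excluded no change and lost to 0, which is 11.4% of the 70. Among the 8 were the keratins KRT5, at a log2 change of 0.98 (0.50 to 1.5) of EGFR relative to it, and KRT8, at 0.88 (0.40 to 1.40). EGFR also gained on VIM, the mesenchymal filament vimentin, at 0.62 (0.10 to 1.18), on CD24, a surface glycoprotein used in sorting, at 1.81 (0.96 to 2.64), and on ANGPTL4, a secreted inhibitor of lipoprotein lipase, at 1.46 (0.66 to 2.23). DDIT4, GNG11 and CLDN7 were the others. For MET the share was also 11.4%, with 7 gains and 1 loss, to BIRC5, which encodes the mitotic regulator survivin, at -0.68 (-1.33 to -0.04).

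For stem over basal, EGFR gained on 7 genes and lost to 5, or 17.1% of 70, and MET gained on 7 and lost to 6, or 18.6%. On the housekeeping scale EGFR stood at 0.04 and MET at -0.005 here, while KRT5 stood at -0.70 and ESRP1 at 2.81. EGFR gained on KRT5 at 0.74 (0.28 to 1.24), on KRT14, a basal keratin, at 0.55 (0.09 to 1.06), on KRT8 at 0.52 (0.07 to 1.02) and on VIM at 0.68 (0.19 to 1.21). Against KRT17, also a basal keratin, the value went the other way, at -0.37 (-0.84 to 0.15), with no change inside the interval. EGFR lost to ESRP1, a splicing regulator of epithelial cells, at -2.78 (-4.72 to -1.31), where basal had 4 counts. It also lost to FABP5, a fatty acid binding protein, at -1.03 (-1.84 to -0.25), and to RRM2, a subunit of ribonucleotide reductase, at -0.91 (-1.54 to -0.27). Among junction genes it lost to CDH3, which encodes P-cadherin and is also a basal marker, at -0.76 (-1.45 to -0.08). JUP, which encodes plakoglobin, was the other, at -0.69 (-1.35 to -0.03). MET lost to these 5 genes and to F11R. For basal over luminal, EGFR and MET each gained on 3 genes and lost to 0, which is 4.29% of 70. They were CD24, ESRP1 and KRT17, with 4, 4 and 342 counts in basal against 21, 19 and 534 in luminal. The same receptor count enters all 70 intervals of a comparison, and the intervals were not widened for their number. The share for a gene other than these receptors was not computed.

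**Figure D4:**
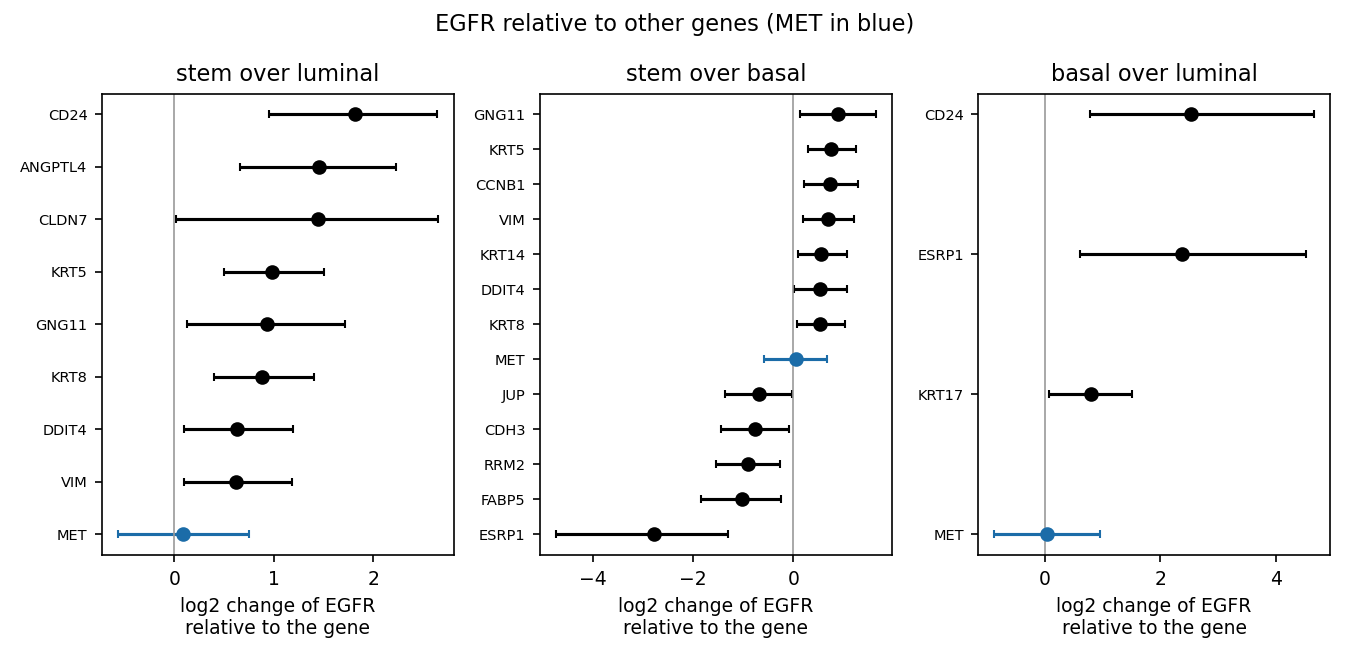
Log2 change of EGFR relative to other genes between libraries, with 95% counting intervals, for the genes whose interval excluded 0 and for MET (blue). A value above 0 means that EGFR was relatively more abundant in the library named first, as against KRT5 at 0.98 for stem over luminal, and the interval of MET includes 0 in each comparison.

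ERBB2 could be set against other receptors over few counts only. For stem over luminal, the ratio of MET to ERBB2 changed by 0.14 (-1.80 to 1.60) and that of EGFR to ERBB2 by 0.22 (-1.74 to 1.71) on the log2 scale. For stem over basal, with the listed ERBB2 value taken as 1, the values were -1.97 (-7.30 to 0.58) for MET to ERBB2 and -1.93 (-7.27 to 0.64) for EGFR to ERBB2. Taken as 0, the upper limits became -0.03 and 0.03, so that even then only MET to ERBB2 had an interval short of no change, by a narrow margin. GRB7, an adaptor that binds ERBB2 and lies beside it on chromosome 17, had 255 counts in stem, 3 in basal and 2 in luminal. The count of ERBB2 over that of GRB7 was 1.66 (1.42 to 1.95) in stem, 0.33 (0.006 to 4.15) in basal and 2 (0.29 to 22.1) in luminal, and the last 2 intervals contain the stem value.

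Other genes of receptor signalling were few on the panel. Of 9 ligands listed, EGF, neuregulins and HGF included, 0 were on it, and of 10 adaptors and feedback regulators 1, GRB7, whose log2 ratio was 0.45 (-1.41 to 3.51) in the comparison of stem with luminal and -0.35 (-1.92 to 1.93) in that of stem with basal. Of 14 other receptor tyrosine kinases, 2 were present. AXL, the receptor for GAS6, had 447 counts in stem and 5 each in basal and luminal, and its log2 ratio was -0.06 (-1.29 to 1.57) for stem over luminal, with -0.28 (-1.51 to 1.35) for stem over basal. FGFR4, a receptor for fibroblast growth factors, had 20 counts in stem, close above background, and was listed at 1 in basal and luminal.

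Of the genes listed for downstream signalling, 2 are given here. PIK3CA, the catalytic subunit of PI3 kinase, had 1032, 8 and 13 counts in stem, basal and luminal and a log2 ratio of -0.23 (-1.01 to 0.68) for stem over luminal. MYC, with 10297, 95 and 94 counts, had one of 0.23 (-0.06 to 0.54).

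After values were seen, 3 more genes were added. SPINT1 and SPINT2 encode membrane inhibitors of the proteases that activate HGF, the ligand of MET, and DDR1 encodes a collagen receptor kinase. SPINT2 had 11086 counts in stem, 93 in basal and 86 in luminal, and its log2 ratio was 0.47 (0.16 to 0.79) for stem over luminal, with 0.14 (-0.16 to 0.45) for stem over basal. SPINT1 had 688, 8 and 10 counts, with -0.44 (-1.32 to 0.63) for stem over luminal, and DDR1 had 908, 10 and 12, with -0.30 (-1.11 to 0.66). Scaling by the median of ratios adds -0.20 to every log2 ratio of stem over luminal, which brings 0 inside the interval of SPINT2.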

How the data were processed

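Barcode counts of 110 endogenous genes, 6 positive and 8 negative control probes were used from 3 libraries. The counts are those the authors deposited, raw and not normalised per the file headers, with 1 as the lowest listed value. The authors also deposited log2 values for 105 genes. These were found to be log2 ratios of each count to the geometric mean of the housekeeping genes SF3A1, RPLP0, PSMC4, MRPL19 and ACTB (largest deviation 3.53e-09). They served as an alternative but equal the main measure, so they are no separate check of it. Earlier steps are not given in the sources used here beyond the manufacturer's protocol, per the labels.

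Here each count was divided by that geometric mean. Ratios between libraries got exact intervals conditional on the summed counts, changes in the ratio of 2 genes a conditional odds ratio, levels exact Poisson intervals (Python 3.11.15, SciPy 1.17.1). All intervals cover 95% and counting error only, not the error of the scale. Counting error of the housekeeping genes alone gives the scale a 95% half-width of 0.19, 0.23 and 0.29 log2 for stem over luminal, stem over basal and basal over luminal, and their unequal ratios, with SDs of 0.37, 0.60 and 0.55, add to it. Ratios were computed over all 105 genes. The interval was tried on simulated Poisson counts with a known scale and no lowest listed value of 1. These draws follow the model of the interval, so they check the calculation only and not how well it suits these libraries. The receptors, gene lists and tests were chosen with earlier results of these data known. Genes named were the receptors, the listed pathway genes on the panel (1 is not reported here), the 3 genes nearest to a receptor and examples chosen after values were seen. Alternatives were other scales, backgrounds, readings of the lowest value, interval widths and folds. Accessions of 109 of 110 genes matched RefSeq (GRCh38.p14), and promoters were found for 4 of 5 receptors.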

Additional observations from a re-analysis of the deposited data

How the results depend on the processing

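No paired analysis was possible because each subpopulation has 1 library. The number of receptors with an interval that excluded 1 was 0 in each comparison on the housekeeping scale. By positive controls it was 3 for stem over luminal, 2 for stem over basal and 2 for basal over luminal, and with probes A to D alone, chosen after seeing the data, 3, 0 and 2. Past the rule of size were 3, 0 and 2 receptors on either positive control scale. For stem over luminal 2 receptors had an interval that excluded 1 by total count or without MRPL19. With the lowest listed value read as 0, 1 receptor (ERBB2) passed for stem over basal, on both criteria. Read as 0, or with the mean negative control subtracted, the shares of ERBB2, ERBB3 and ERBB4 in basal and of ERBB3 and ERBB4 in luminal were 0, and subtraction left ERBB4 with 0.064% of receptor counts in stem. Over all genes, those past the rule ranged over 0 to 70 for stem over luminal, 1 to 13 for stem over basal and 0 to 55 for basal over luminal. The cause was not tested. The number of separated neighbours in the order of receptors, and the changes in the ratio of receptors above background in both libraries, kept their calls under the alternatives run. The ratio of MET to ERBB2 for stem over basal did not: its upper limit was 0.58 with ERBB2 in basal read as 1 and -0.03 read as 0. The calls that were kept were largely bound to be, as a scale between libraries cannot alter an order or a ratio of receptors. The ratio intervals all included no change already, so wider intervals could not alter them. Separation was called on counts without background subtracted. Depth limits ERBB2, ERBB3 and ERBB4 in basal and luminal.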

Other observations

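The authors' deposited table of log2 values has no background step. There ERBB4, the lowest receptor in stem, seems to differ most of the 5 in both comparisons with stem. ERBB2 differs by 1.97 for stem minus basal and by -1.78 for basal minus luminal, where ERBB3 and ERBB4 each differ by 0.22. In the authors' deposited table ERBB4 stands at -9.65 in stem, -6.89 in basal and -7.11 in luminal, a difference of -2.76 for stem minus basal and -2.54 for stem minus luminal. In the authors' deposited table ERBB3 differs by -0.93 for stem minus basal and by -0.71 for stem minus luminal. The raw counts behind the values of ERBB4 and ERBB3 are 16 and 57 in stem against a listed 1 in basal and in luminal. A listed 1 is worth a normalised count of 0.84 in basal and 0.72 in luminal. Both are above the stem levels of ERBB3, at 0.44, and ERBB4, at 0.12. The counting intervals of these ratios include 1, from -5.45 to 2.63 for ERBB4 in stem over basal and from -3.46 to 4.4 for ERBB3. FGFR4, at 20 counts in stem and a listed 1 in basal, has the same form, with a log2 ratio of -2.44 (-5.08 to 2.93).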
